A study of Mus musculus with 6 samples.

Results

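Matrix metalloproteases (MMPs), ADAM proteases, their secreted ADAMTS and ADAMTS-like relatives, and the tissue inhibitors of metalloproteases (TIMPs) were followed in mouse livers that expressed Sonic Hedgehog (SHH) or green fluorescent protein (GFP). The members were the genes whose symbol begins with Mmp, Adam, Adamts or Adamtsl and a number, or is Timp1 to Timp4, each read from 1 probe set assigned to no other gene, and from the one with the greatest average over the 6 arrays where there was a choice. This gave 82 of the 22180 genes measured: 22 MMPs, 4 TIMPs, 33 ADAMs and 23 ADAMTS or ADAMTS-like genes. The SHH group was 3 male C57BL/6 mice with a liver expressing SHH (mice 26, 28 and 31), and the GFP group was 3 male C57BL/6 mice with a liver expressing GFP (mice 13, 21 and 6), with 1 array per mouse. Per the series' design text, SHH was brought into the liver by hydrodynamic transfection, a rapid large-volume injection that carries DNA mainly into hepatocytes, so part of the liver cells carry the gene. The sample descriptions call the GFP livers EGFP and do not say how GFP was delivered. The sources used here state neither age nor time after delivery nor promoter, and no batch is labelled. SHH is a secreted ligand of the Hedgehog pathway, and the study looked at fibrosis of the liver and the expression of fibrosis genes in this model.

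Matrix turnover in the liver is set by proteases that cut collagens, proteoglycans and glycoproteins, and by the TIMPs that block them. MMPs are made as inactive zinc proteases and work in the matrix or at the cell surface. ADAMs sit in the membrane and release the outer parts of other membrane proteins, such as cytokines and their receptors, while ADAMTS proteases are secreted and trim proteoglycans, procollagens and von Willebrand factor. In liver fibrosis, stellate cells and macrophages are the best known sources of MMPs, and TIMP1 and TIMP2 are known to slow the removal of scar.

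Values are log2 signals, which the submitters' processing notes attribute to RMA. Array medians lay between 4.32 and 4.40, and correlations over probe sets were 0.975 to 0.980 within groups and 0.971 to 0.981 between them. Shh signal was 4.57, 4.28 and 4.63 in SHH mice 26, 28 and 31, against 3.43, 3.67 and 3.86 in GFP mice 13, 21 and 6 (difference 0.84, limma, adjusted p = 0.356). The livers expressed hepatocyte markers, with 7 of 7 measured (among them Alb, Apoa1 and Ttr) above the median of every array. No immune marker passed the threshold over all genes. The mean of 10 macrophage and monocyte markers was 6.65, 6.93 and 7.64 in SHH mice 26, 28 and 31, against 6.11, 6.01 and 6.68 in GFP mice 13, 21 and 6, and these values overlapped, since SHH 26 lay below GFP 6. The mean of 10 neutrophil markers was 3.73, 4.77 and 4.65 in these SHH livers, against 3.61, 3.41 and 3.63 in the GFP livers, without overlap. In these bulk samples, more cells of a type and more RNA per cell cannot be told apart.

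The files hold no detection call, so each member was set against the median signal of its own array. This yardstick depends on how well each probe set binds, and levels of different genes were therefore not ranked. On all 6 arrays, 29 of the 82 members (35.4%) were above the array median, compared with 51% of all genes, while 43 were below it on all 6 and 10 were mixed. The 29 were Mmp2, Mmp9, Mmp11, Mmp14, Mmp17, Mmp19, Mmp23 and Mmp24, the inhibitors Timp2 and Timp3, the ADAMs Adam4, Adam9, Adam10, Adam11, Adam15, Adam17 and Adam23, the ADAMTS genes Adamts1, Adamts6, Adamts7, Adamts9, Adamts10, Adamts12, Adamts13, Adamts14 and Adamts17, and Adamtsl2, Adamtsl4 and Adamtsl5. Just inside that line were Mmp24, Adam4 and Adamts12, whose smallest margin over an array median was 0.061, 0.004 and 0.003. Just outside it were Mmp7, Adamts15 and Adamts16, whose lowest values lay under the median by margins of -0.097, -0.22 and -0.24.

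**Figure D1:**
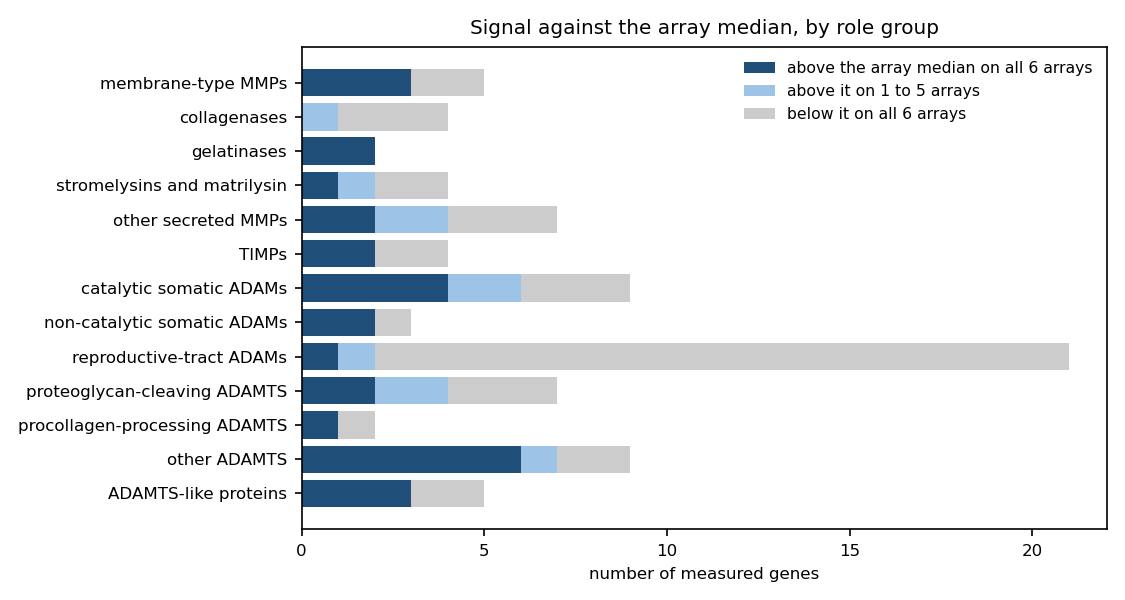
Number of measured genes (x axis) in each of 13 role groups, split by whether their signal was above the array median on all 6 arrays, on 1 to 5 arrays or on none. Both gelatinases were above it on all 6 arrays, against 0 of 4 collagenases, and 19 of the 21 reproductive-tract ADAMs were below it on all 6.

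Between SHH and GFP livers, no member passed the threshold of 0.05 over all genes after Benjamini-Hochberg adjustment in limma, and 0% of the 22180 genes did. At an unadjusted p under 0.05 there were 9 of the 82 members (11.0%), compared with 1627 of all genes (7.34%). Of these, 3 had higher means in SHH livers (3.66%, against 3.33% of all genes) and 6 had lower means (7.32%, against 4.01%). The 9 became 3 without GFP 13, 4 without SHH 28, and 5 without GFP 6 or SHH 26. The 3 higher ones became 1 without SHH 28 or SHH 31, and the 6 lower ones became 1 without GFP 13 and 3 without GFP 6, SHH 26 or SHH 28.

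SHH and GFP values did not overlap for 11 members (13.4%), close to the 12.5% of all genes. For 6 of them the SHH livers were higher (7.32%, against 5.26%), and for 5 they were lower (6.10%, against 7.25%). Means were higher in SHH livers for 42 members (51.2%, against 43.8% of all genes), and the median difference was 0.00 on the log2 scale, compared with -0.03 for all genes. Among the 29 members above the median on all arrays, 18 had higher means (62.1%, against 45% of all genes above it), 3 had an unadjusted p under 0.05 (10.3%, against 7.41%) and 4 did not overlap (13.8%, against 13.8%). Differences ran from -0.60 for Timp3 to 0.67 for Mmp14, and these were the 2 members that differed by more than 0.5 in either direction.

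**Figure D2:**
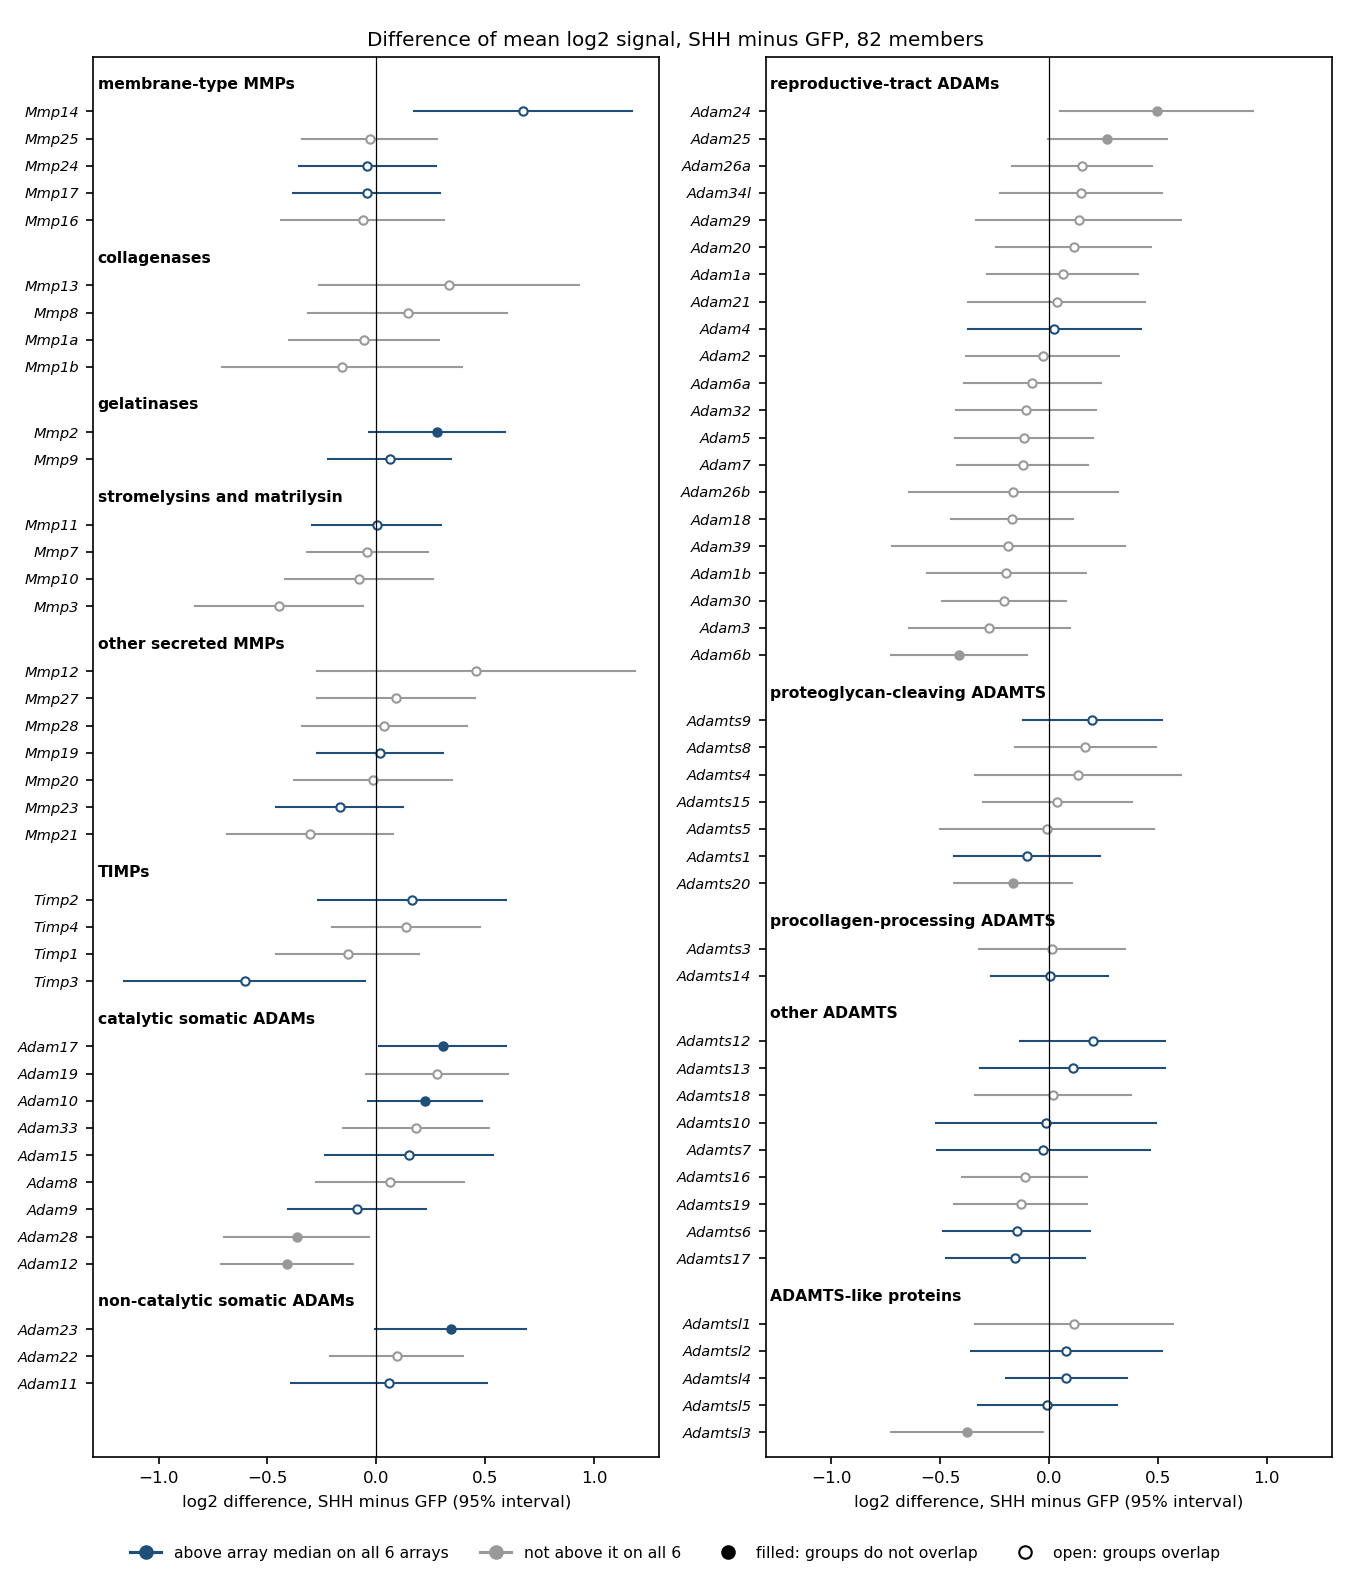
Difference of mean log2 signal, SHH minus GFP (x axis), with its 95% interval from limma, for each of the 82 members by role group. Mmp14 lies farthest to the right at 0.67 and Timp3 farthest to the left at -0.60, and most intervals include 0.

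Mmp14 encodes a collagenase anchored in the cell membrane that cuts fibrillar collagen and activates the gelatinase MMP2. Its log2 signal was 6.77, 7.61 and 7.47 in SHH mice 26, 28 and 31, against 6.57, 6.43 and 6.83 in GFP mice 13, 21 and 6. SHH 28 and SHH 31 were above every GFP liver, while SHH 26 lay just under GFP 6, so the groups overlapped. The means were 7.28 ± 0.45 in SHH livers and 6.61 ± 0.20 in GFP livers (SD, n = 3 each), 1.595-fold higher, with a 95% interval of the log2 difference of 0.17 to 1.17 (limma, adjusted p = 0.576). Without SHH 26 the difference was 0.93 on the log2 scale (limma, adjusted p = 0.125). It was 0.51 without SHH 28 (limma, adjusted p = 0.764) and 0.58 without SHH 31 (limma, adjusted p = 0.708), and in both the unadjusted p was above 0.05, at 0.0553 and 0.0529. Among the SHH livers, SHH 26 also had the lowest mean of the macrophage and of the neutrophil markers. Their part in the Mmp14 difference was not tested.

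Of 6 listed membrane-type MMPs, 5 were measured, and Mmp15 had no probe set of its own. Besides Mmp14 the measured ones were Mmp16, Mmp17, Mmp24 and Mmp25, whose log2 differences were -0.06, -0.04, -0.04 and -0.03 with overlapping groups. Of these 4 intervals the widest was that of Mmp16, from -0.44 to 0.31. Mmp14 was the 1 member of these 5 genes with a higher mean in SHH livers.

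The 250 bases before the start of Mmp14 and of Timp3 are shown because these genes had the largest differences in opposite directions. The sequences are from RefSeq (GRCm38.p6) at chr14:54431348-54431597 (+ strand) for Mmp14 and chr10:86300162-86300411 (+ strand) for Timp3, with capitals marking GC boxes (GGGCGG, which reads CCGCCC on the other strand).
Mmp14: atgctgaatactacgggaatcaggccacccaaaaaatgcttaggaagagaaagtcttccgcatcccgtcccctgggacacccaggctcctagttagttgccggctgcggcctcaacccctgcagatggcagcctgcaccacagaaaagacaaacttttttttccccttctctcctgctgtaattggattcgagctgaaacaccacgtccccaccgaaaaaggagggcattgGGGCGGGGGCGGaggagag
Timp3: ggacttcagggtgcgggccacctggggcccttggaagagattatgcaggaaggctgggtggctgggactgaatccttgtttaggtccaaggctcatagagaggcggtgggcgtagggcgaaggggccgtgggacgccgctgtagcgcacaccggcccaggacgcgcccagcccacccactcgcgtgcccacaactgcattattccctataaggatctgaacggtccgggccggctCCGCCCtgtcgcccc
The Mmp14 window holds 2 adjoining GC boxes that do not overlap, whose first bases lie 19 and 13 bases before the start, and the Timp3 window holds 1 on the other strand, 15 bases before it. A GC box was found in 32.7% of the 32851 promoter windows in the table. Neither window holds an exact match of the Gli element GACCACCCA, a consensus site of the transcription factors of Hedgehog signalling. It was found in 0.225% of all windows on either strand and in 0 of the 56 windows that matched 51 of the members. Only exact letters were searched, so sites with other letters, or outside these 250 bases, were not seen. With so low a share of all windows, 0 of 56 does not set the members apart from other genes.

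Among the inhibitors, Timp3 binds to the matrix and blocks ADAM17 and several ADAMTS proteases as well as MMPs. Its signal was 5.95, 5.32 and 6.02 in SHH mice 26, 28 and 31, against 6.48, 5.92 and 6.71 in GFP mice 13, 21 and 6. SHH 28 was the lowest of the 6 livers, and GFP 21 lay below SHH 26 and SHH 31. The mean was 5.76 ± 0.38 in SHH livers and 6.37 ± 0.41 in GFP livers (SD, n = 3 each), 1.52-fold lower, with a log2 difference of -0.60 and a 95% interval of -1.16 to -0.05 (limma, adjusted p = 0.662). Without SHH 28 the difference was -0.38 (limma, adjusted p = 0.804), and the unadjusted p was above 0.05 without SHH 28, GFP 13 or GFP 6, at 0.135, 0.0918 and 0.13. Liver endothelial markers had means of 6.74, 6.37 and 7.13 in SHH mice 26, 28 and 31, against 6.94, 6.75 and 7.22 in GFP mice 13, 21 and 6. All 7 had lower means in SHH livers, as did 12457 of the 22180 genes, and none had an unadjusted p under 0.05. The groups did not overlap for 1 of the 7, with SHH lower, as for 7.25% of all genes. For the mean of these markers too, SHH 28 was the lowest SHH liver and GFP 21 the lowest GFP liver. The part of these cells in the Timp3 difference was not tested.

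Timp2, which blocks MMPs and also takes part in the activation of MMP2 by MMP14, was measured at 6.39, 6.29 and 6.78 in SHH mice 26, 28 and 31, against 6.36, 6.01 and 6.61 in GFP mice 13, 21 and 6. These values overlapped, with a difference of 0.16 and an interval of -0.27 to 0.59, and the difference was 0.00 without GFP 21 and 0.02 without SHH 31. Timp1, the inhibitor most closely tied to liver fibrosis, had 2.36, 2.34 and 2.59 in the SHH livers, against 2.57, 2.75 and 2.36 in the GFP livers. Every Timp1 value lay under the lower quartile of its array (3.13 to 3.22), a range in which probe signals compress real differences, and the difference was -0.13, or -0.04 without GFP 21 and -0.23 without GFP 6. Timp4 was below the median of every array and had 3.61, 3.81 and 3.30 in SHH mice 26, 28 and 31. Its values were 3.42, 3.47 and 3.42 in GFP mice 13, 21 and 6, and the difference was 0.14, or 0.02 without SHH 28 and 0.27 without SHH 31.

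The gelatinases cut denatured collagen and the collagen of basement membranes. Mmp2, made mainly by stellate cells in liver, was 5.04, 4.75 and 4.83 in SHH mice 26, 28 and 31, against 4.65, 4.43 and 4.71 in GFP mice 13, 21 and 6. Each SHH liver was above each GFP liver, narrowly so for SHH 28 and GFP 6, and the difference of 0.28 had an interval of -0.04 to 0.59 (limma, adjusted p = 0.724). The 10 stellate cell and fibroblast markers all had higher means in SHH livers (43.8% of all genes did), 1 of them at an unadjusted p under 0.05 (3.33% of all genes). Their average was 6.57, 6.47 and 6.65 in the SHH livers and between 6.33 and 6.35 in the GFP livers, and their part in the Mmp2 difference was not tested. Mmp9, the gelatinase of neutrophils and macrophages, had a difference of 0.06, with 4.77 to 4.95 in SHH livers and 4.66 to 4.87 in GFP livers.

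Of the 4 collagenases, none was above the array median on all 6 arrays. Mmp13, the main interstitial collagenase of rodents, was 3.38, 3.13 and 4.21 in SHH mice 26, 28 and 31, against 3.02, 3.21 and 3.50 in GFP mice 13, 21 and 6. Only SHH 31 was above the highest GFP liver, and the difference of 0.33 became 0.01 without it. The macrophage elastase gene Mmp12 had 3.79, 3.66 and 5.04 in the SHH livers, against 3.52, 3.74 and 3.86 in the GFP livers. Here too SHH 31 alone exceeded the highest GFP liver, and the difference of 0.46 became 0.02 without it. SHH 31 also had the highest mean of the macrophage and monocyte markers, 7.64, and the part of these cells in Mmp12 and Mmp13 was not tested. Mmp12 and Mmp13 were singled out after their values were seen. Mmp8, the collagenase of neutrophils, differed by 0.14, and Mmp1a and Mmp1b by -0.06 and -0.16, each with overlapping groups.

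**Figure D3:**
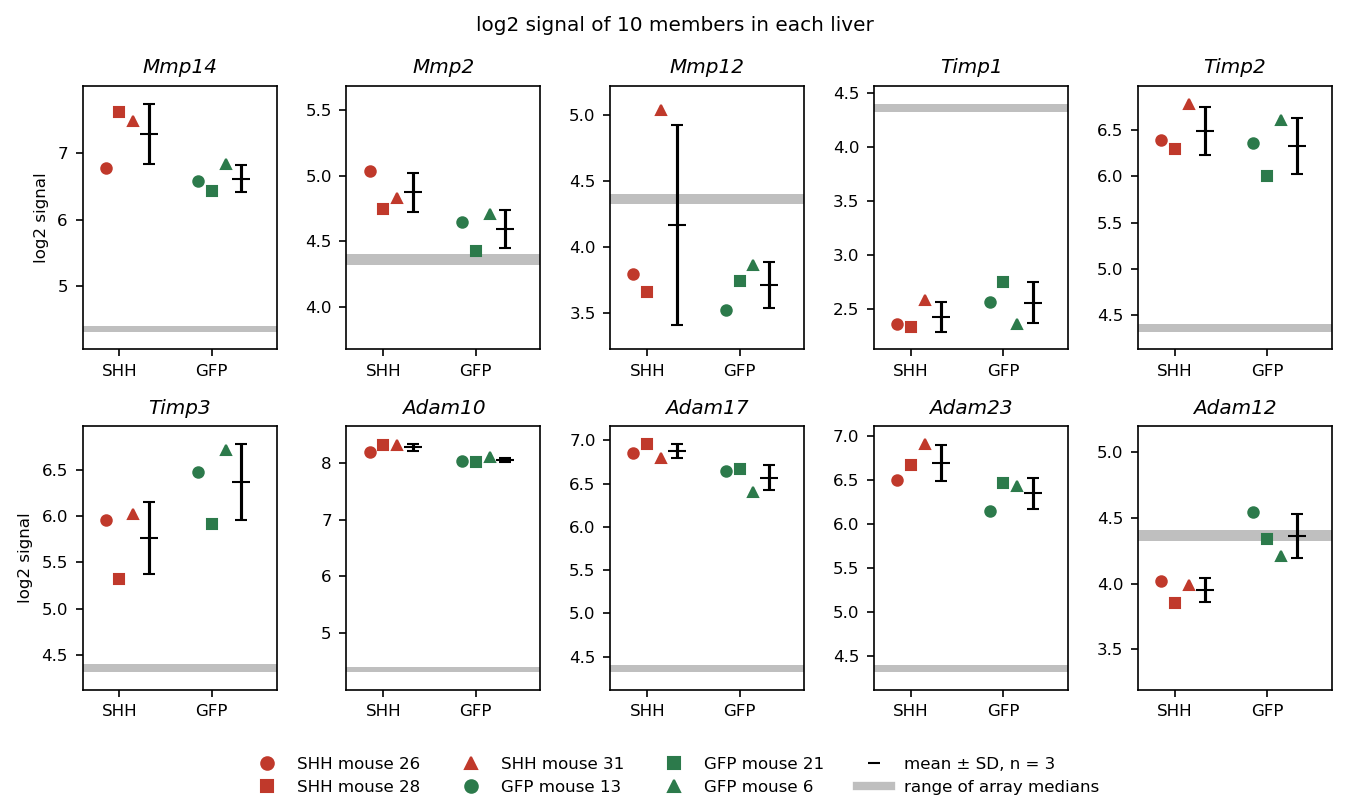
The log2 signal (y axis, scaled per gene) of 10 members in each SHH and each GFP liver, with the mean ± SD of 3 livers as a bar and the range of the 6 array medians as a grey band. SHH 31 stands alone for Mmp12 at 5.04, Mmp14 is highest in SHH 28 and SHH 31, and Timp3 is lowest in SHH 28.

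Stromelysins and matrilysin cut proteoglycans and glycoproteins of the matrix. Mmp3, which activates other MMPs, had 2.21, 2.36 and 2.05 in SHH mice 26, 28 and 31, against 2.86, 2.79 and 2.31 in GFP mice 13, 21 and 6. SHH 28 was above GFP 6, all values lay under the lower quartile of their arrays, and the difference was -0.45 (limma, adjusted p = 0.641). Mmp7, Mmp10 and Mmp11 differed by -0.04, -0.08 and 0.00. Mmp19, a secreted MMP with a broad range of substrates, was above the median throughout and nearly level, with 7.79 to 8.10 in SHH livers and 7.91 to 7.99 in GFP livers (difference 0.02, interval -0.27 to 0.31). Mmp23 differed by -0.17 and Mmp21, below the median on all arrays, by -0.30.

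In the RefSeq table, 10 of the MMP genes are neighbours: Mmp13, Mmp12, Mmp1b, Mmp3, Mmp1a, Mmp10, Mmp8, Mmp27, Mmp20 and Mmp7. None of these 10 was above the array median on all 6 arrays, compared with 8 of the 12 MMP genes elsewhere. Their differences ran from -0.45 to 0.46, 4 upward and 6 downward. None passed the threshold over all genes, and several, among them those of Mmp1a, Mmp1b, Mmp7 and Mmp10, changed sign with 1 mouse left out. The AP-1 element TGAGTCA, which reads TGACTCA on the other strand and is the best known regulatory site of MMP promoters, was found within 250 bases before the start of 7 of them, and in 4.46% of all promoter windows. Mmp8, Mmp27 and Mmp20 have windows without these letters. The elements are shown with 15 bases on either side because 7 of these 10 neighbours share this site, with capitals marking the AP-1 letters. The part of the site in their differences was not tested. They are from RefSeq (GRCm38.p6) at chr9:7272464-7272500 (+ strand) for Mmp13, chr9:7347315-7347351 (+ strand) for Mmp12, chr9:7388098-7388134 (- strand) for Mmp1b, chr9:7445761-7445797 (+ strand) for Mmp3, chr9:7464053-7464089 (+ strand) for Mmp1a, chr9:7502264-7502300 (+ strand) for Mmp10, chr9:7692012-7692048 (+ strand) for Mmp7.
Mmp13: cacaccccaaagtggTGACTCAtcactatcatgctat
Mmp12: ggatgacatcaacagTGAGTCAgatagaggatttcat
Mmp1b: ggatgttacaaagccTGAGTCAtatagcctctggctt
Mmp3: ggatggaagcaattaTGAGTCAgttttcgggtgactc
Mmp1a: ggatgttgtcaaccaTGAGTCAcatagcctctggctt
Mmp10: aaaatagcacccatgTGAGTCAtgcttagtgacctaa
Mmp7: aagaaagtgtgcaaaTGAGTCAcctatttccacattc
The first base of the element lies 35, 44, 93, 46, 73, 63 and 63 bases before the start in the order shown. The table lists more than 1 start for some genes, and a match is a description of letters and not of binding.

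ADAM proteases with an active site that are made in many tissues numbered 9. Adam17 releases TNF, the IL-6 receptor and ligands of the EGF receptor from cells. It had 6.86, 6.96 and 6.80 in SHH mice 26, 28 and 31, against 6.64, 6.67 and 6.40 in GFP mice 13, 21 and 6. All 3 SHH livers were above all 3 GFP livers, with means of 6.87 ± 0.081 in SHH livers and 6.57 ± 0.15 in GFP livers (SD, n = 3 each), 1.23-fold higher (95% interval of the log2 difference 0.01 to 0.60, limma, adjusted p = 0.668).

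Adam10, which cuts Notch receptors and many adhesion molecules, was 8.20, 8.31 and 8.31 in SHH mice 26, 28 and 31, against 8.04, 8.01 and 8.09 in GFP mice 13, 21 and 6. These groups did not overlap either, and the spread within each was small (8.27 ± 0.065 in SHH livers and 8.05 ± 0.042 in GFP livers, SD, n = 3 each), but the difference was 0.22 with an interval of -0.04 to 0.48 (limma, adjusted p = 0.742). Adam9, a sheddase with many substrates, differed by -0.09 and Adam15, which also binds integrins, by 0.15, each with overlapping groups. Adam15 had a second probe set, which differed by 0.02.

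Adam12, a sheddase of growing mesenchymal tissue, was lower in every SHH liver, with 4.02, 3.85 and 3.99 in SHH mice 26, 28 and 31, against 4.54, 4.34 and 4.21 in GFP mice 13, 21 and 6. The difference was -0.41 with an interval of -0.71 to -0.11 (limma, adjusted p = 0.574), and its values were above the array median on 1 array, that of GFP 13. Adam28, known from lymphocytes, had 2.94, 3.36 and 3.27 in the SHH livers, against 3.67, 3.47 and 3.54 in the GFP livers, without overlap and below the median throughout. Its difference of -0.37 (limma, adjusted p = 0.659) became -0.24 without SHH 26. Adam8, Adam19 and Adam33 differed by 0.06, 0.28 and 0.18, and the second probe set of Adam19 by 0.13.

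Adam11, Adam22 and Adam23 lack the active site and bind partners at the cell surface, best known in nerve tissue. Adam23 was above the array medians and had 6.50, 6.67 and 6.92 in SHH mice 26, 28 and 31, against 6.15, 6.47 and 6.44 in GFP mice 13, 21 and 6. The groups did not overlap, although SHH 26 lay close to GFP 21, and the difference was 0.34 (interval -0.01 to 0.69, limma, adjusted p = 0.690). Adam11 and Adam22 differed by 0.06 and 0.09.

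Of 25 listed ADAMs with known roles in sperm and the reproductive tract, 21 were measured. Of these 21, 19 were below the median on all arrays, and 10 of the 19 were also below the lower quartile on all arrays. Adam4 was above the median on all arrays and Adam6a on 1. Adam24 and Adam25 were higher in every SHH liver and Adam6b lower, by 0.49, 0.27 and -0.41. Adam24 had 3.61, 3.55 and 3.85 in SHH mice 26, 28 and 31, against 3.54, 2.78 and 3.21 in GFP mice 13, 21 and 6, with SHH 28 and GFP 13 close together, and its difference became 0.29 without GFP 21. Adam25 (1.85 to 1.98 in SHH livers and 1.57 to 1.76 in GFP livers) and Adam6b (1.13 to 1.46 in SHH livers and 1.58 to 1.83 in GFP livers) lay under the lower quartile of every array. Several of these genes are near copies of each other, and a probe set may then pick up more than 1 of them. In a run of neighbours, Adam9 was above the median on every array while Adam18, Adam3, Adam5 and Adam32 were below it on every array. The means of all 5 were lower in SHH livers, by -0.09 to -0.27 on the log2 scale, as were those of 12457 of the 22180 genes. None of the 5 had an unadjusted p under 0.05 or groups apart, and Adam32 was at 0.01 without GFP 6. Means were higher for 3 of the 4 neighbours Adam24, Adam25, Adam20 and Adam39. This also held for 2 of the 3 neighbours Adam26b, Adam26a and Adam34l (43.8% of all genes).

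The ADAMTS proteases that cut aggrecan and versican comprised 7 measured genes with differences of -0.17 to 0.20. Adamts1 and Adamts9, both versican-cutting enzymes, were above the median on all arrays. Adamts1 was 5.43, 5.84 and 5.85 in SHH mice 26, 28 and 31, against 5.84, 5.73 and 5.85 in GFP mice 13, 21 and 6, so that SHH 26 alone was low. Adamts9 had 5.56, 5.60 and 5.75 in the SHH livers, against 5.47, 5.22 and 5.62 in the GFP livers, with a difference of 0.20 and an interval of -0.12 to 0.52. The difference was 0.09 without GFP 21. Adamts20 was lower in each SHH liver, by -0.17, with values of 3.39 to 3.59 in SHH livers and 3.59 to 3.65 in GFP livers, below all array medians.

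Adamts14, which removes the amino-terminal propeptide of procollagen, was level, with 4.82 to 4.85 in SHH livers and 4.71 to 4.90 in GFP livers. Its relative Adamts3 differed by 0.01, and Adamts2 was not measured. Adamts13, the protease of von Willebrand factor that stellate cells make, was 4.94, 4.65 and 5.34 in SHH mice 26, 28 and 31, against 5.02, 4.67 and 4.92 in GFP mice 13, 21 and 6, which overlapped. Adamts6, Adamts7, Adamts10, Adamts12 and Adamts17 differed by -0.15 to 0.20 with overlapping groups, as did Adamts16, Adamts18 and Adamts19 below or around the median.

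ADAMTS-like proteins have no protease domain and bind microfibrils and other matrix parts. Adamtsl3 was the member with the largest difference among the 23 genes of the ADAMTS branch, with 3.72, 3.79 and 4.20 in SHH mice 26, 28 and 31, against 4.37, 4.20 and 4.27 in GFP mice 13, 21 and 6. The groups did not overlap, with SHH 31 and GFP 21 nearly level, all values were below the array medians, and the difference was -0.38 (limma, adjusted p = 0.663). Adamtsl2, which binds microfibrils, Adamtsl4 and Adamtsl5 were above the medians and differed by 0.08, 0.08 and -0.01.

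Genes that work with these proteases were read from 7 lists, with 75 of 82 genes measured. Means were higher in SHH livers for 54 (72%, against 43.8% of all genes) and lower for 21, with a median difference of 0.12, compared with -0.03 for all genes. At an unadjusted p under 0.05, 10 were higher and 2 lower, where all genes gave 3.33% higher and 4.01% lower, and none passed over all genes. Some of these genes, such as Csf1r, Lum and Dcn, are also on the cell marker lists. These lists and the cell marker lists were chosen with earlier results of these data known. The shares given for them, together and list by list, are therefore descriptions with no test.

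Of 19 proteins that ADAM17 or ADAM10 release from cells, 15 had higher means in SHH livers (78.9%, against 43.8% of all genes). An unadjusted p under 0.05 was found for 4, all upward, at a background of 3.33%. Il6ra, the IL-6 receptor that ADAM17 sheds, was 8.83, 8.76 and 8.49 in SHH mice 26, 28 and 31, against 8.38, 7.94 and 8.08 in GFP mice 13, 21 and 6. Every SHH liver was above every GFP liver, with a difference of 0.56 (limma, adjusted p = 0.512). The TNF receptor Tnfrsf1a was higher by 0.52, the Notch receptor Notch3 by 0.29 and the macrophage growth factor receptor Csf1r by 0.67, with adjusted p of 0.662 to 0.672 in limma. The groups overlapped for Tnfrsf1a and Csf1r but not for Notch3.  The 8 partners that escort ADAM17 and ADAM10 through the cell differed by -0.27 to 0.28 and none had an unadjusted p under 0.05.

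Among 16 matrix substrates, 13 had higher means (81.2%, against 43.8% of all genes) and 5 had an unadjusted p under 0.05, again all upward, against 3.33% of all genes. Fibronectin (Fn1) was 11.65, 12.00 and 11.94 in SHH mice 26, 28 and 31, against 11.49, 11.49 and 11.59 in GFP mice 13, 21 and 6, a difference of 0.34 without overlap. The basement membrane collagen Col4a1, a gelatinase substrate, was 5.69, 6.01 and 6.24 in the SHH livers, against 5.56 to 5.64 in the GFP livers, a difference of 0.37. The proteoglycan genes Lum and Vcan had differences of 0.70 and 0.59, without overlap for Lum and with overlap for Vcan, which lay below the median of every array. For Lum, Vcan, Fn1 and Col4a1 limma gave an adjusted p of 0.470 to 0.668.

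Pro-MMPs are turned into active enzymes by other proteases. Of 8 genes of the plasminogen system, 7 had higher means (43.8% of all genes did). Their differences ran from -0.03 to 0.35, with none at an unadjusted p under 0.05. Of 8 pro-protease activators, the convertase Pcsk6 was lower in each SHH liver, with 8.12, 8.41 and 8.22 in SHH mice 26, 28 and 31, against 8.77, 8.49 and 8.64 in GFP mice 13, 21 and 6 (difference -0.38, limma, adjusted p = 0.611). The metalloprotease Mep1a was lower by -0.32 and below all array medians. Pcsk6 and Mep1a were lower at an unadjusted p under 0.05, as were 4.01% of all genes. The 9 other inhibitors and inducers differed by -0.19 to 0.27 and had none at an unadjusted p under 0.05. Of 7 collagen crosslinking genes, Loxl4 was higher by 0.34, with an unadjusted p under 0.05, which the other 6 did not reach. Of all genes, 3.33% were higher at that p.

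**Figure D4:**
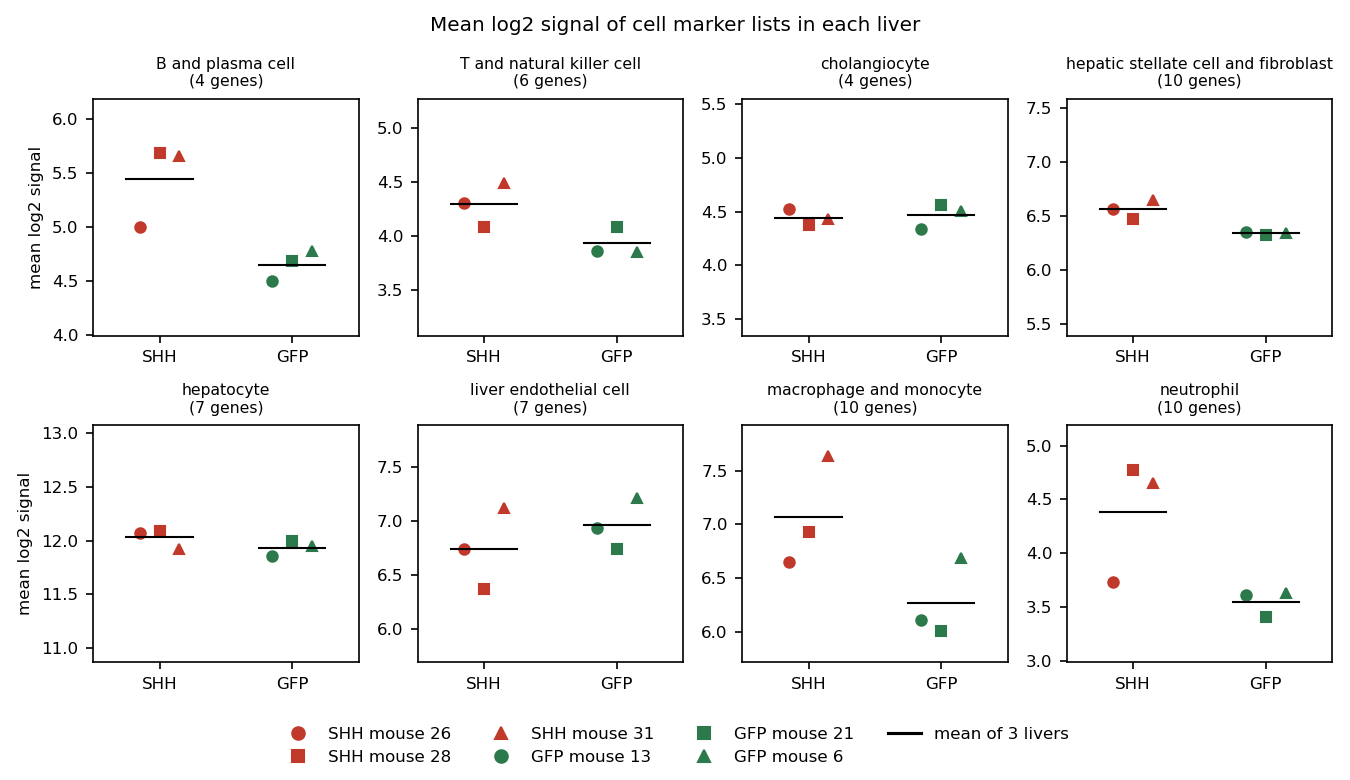
Mean log2 signal (y axis) of 8 lists of cell markers in each SHH and each GFP liver, with a line at the mean of 3 livers. Every SHH liver is above every GFP liver for stellate cell, neutrophil, and B and plasma cell markers. By a hair this also holds for T and natural killer cell markers, while SHH 31 is highest for macrophages at 7.64.

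The marker lists describe the cells these genes could come from. The share of all genes with a higher mean in the SHH group was 43.8%, and 3.33% were higher at an unadjusted p under 0.05. For 5.26% of all genes every SHH liver was above every GFP liver. All 10 neutrophil markers had higher means, 1 of them above the median on all arrays and 3 below it on all arrays, and 5 had an unadjusted p under 0.05, among them S100a9 with a difference of 1.84. The groups did not overlap for 4 of these 10. All 10 macrophage and monocyte markers had higher means as well, 7 with an unadjusted p under 0.05, led by Mpeg1 at 1.44, and again the groups did not overlap for 4. B and plasma cell markers had means of 4.998, 5.68 and 5.66 in SHH mice 26, 28 and 31, against 4.498, 4.68 and 4.78 in GFP mice 13, 21 and 6. The immunoglobulin-related genes Jchain and Ighm differed by 1.46 and 1.38 without overlap. On the same list Cd79a and Ms4a1 differed by 0.32 and 0.02, with overlapping groups. T and natural killer cell markers had 4.31, 4.09 and 4.49 in the SHH livers. Their means were 3.86, 4.09 and 3.85 in the GFP livers. Of these 6 markers, 5 had higher means in SHH livers. An unadjusted p under 0.05 was found for 2, Cd3g with a difference of 1.02 and Cd8a with 0.55. The groups did not overlap for 3 of the 6, and Klrb1c was lower in SHH livers by -0.14. Bile duct markers differed by -0.02 and hepatocyte markers by 0.09 on average. None of the genes on these lists passed over all genes, and the part of any of these cells in the values of the proteases and inhibitors was not tested.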

How the data were processed

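Total RNA of 6 livers was hybridised to Affymetrix arrays. The deposited values are log2 signals made with RMA (background correction, normalization between arrays, summary per probe set), per the submitters' processing notes; its version is not stated there. The table held 41345 probe sets: 23521 named 1 gene, 1814 several and 16010 none. Of 88 probe sets naming a member and no other gene, the one with the highest mean was kept per gene (6 members had 2). A further 3 probe sets, shared by a member and another gene, were left out. Some genes of these families, among them Mmp15 and Adamts2, had no probe set of their own and were not measured.

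The comparison of both groups used lmFit and eBayes of limma 3.58.1 under R 4.3.3 (two-sided, no filter or covariate), with Benjamini-Hochberg adjustment over 22180 genes. Differences are SHH minus GFP, and intervals are 95%. The labels name separate mice. An exact permutation test of 3 against 3 cannot go below 0.1, so none was used. In simulated data of this comparison with 22180 genes, 75.8% of genes changed by 1 and 2.4% of those changed by 0.5 passed, with 4.85% false calls. Each of 10 runs held 200 changed genes, by 0.5, 1, 2 or 3, with independent errors. The large changes put in there ease the Benjamini-Hochberg cut-off. In the real data no gene passed, not even Mpeg1 with a difference of 1.44 (limma, adjusted p = 0.174). The simulated shares therefore need not hold here. The number of arrays limits the precision.

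Named were all TIMPs, members above the median on all arrays, the 3 members just inside and just outside that line, members with an unadjusted p under 0.05 or groups apart, and from each other list up to 4 genes at that p. The neutrophil, macrophage and hepatocyte lists held more such genes than are named. Among the neutrophil markers, S100a9 was named for its difference and did not have the smallest p. Any other gene named here was chosen after its values were seen. Neighbours are members whose starts lie within 500000 bases of the next. All 82 members matched RefSeq by gene identifier. The members and lists were chosen with earlier results of these data known. Alternatives are given in the closing section.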

Additional observations from a re-analysis of the deposited data

How the results depend on the processing

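No member passed the threshold over all genes under any of the 14 alternatives run, while the count over all genes, 0, became 46 without SHH 26 (0 to 46 over the mice left out). The 9 members with an unadjusted p under 0.05 became 4 when only genes above the median level were tested, which left 25 members; 1 of the 4 was lower, and the median difference was 0.058. With 1 mouse left out, the count was 3 to 8, that of higher members 1 to 3 and of lower members 1 to 7, and the median difference -0.043 to 0.028. Mmp14 ranged from 0.51 to 0.93 (adjusted p 0.125 to 0.874 over the alternatives) and Timp3 from -0.83 to -0.38 (0.534 to 0.919). No paired analysis was possible because the groups share no mouse number.

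Of 1063 values for the other 80 members, 981 kept their direction and side of the threshold and 82 changed sign. With the mean of probe sets Adamts14 was -0.020 and Mmp11 -0.016, and with the largest interquartile range -0.043 and -0.033. A second quantile normalization gave Adam2 0.0054, Adamts5 0.014, Mmp11 -0.0001 and Mmp20 0.028. Array weights gave Adam11 -0.049, Adam4 -0.035, Adamts14 -0.0084, Adamts3 -0.054, Adamtsl5 0.0002, Mmp11 -0.054 and Mmp19 -0.0028.

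With 1 mouse left out, 40 members changed sign, with these ranges: Adam21 -0.152 to 0.203, Adam26b -0.388 to 0.0088, Adam6a -0.150 to 0.013, Adamts1 -0.174 to 0.038, Adamts15 -0.081 to 0.130, Mmp20 -0.108 to 0.126, Mmp24 -0.138 to 0.059, Mmp28 -0.125 to 0.129, Mmp7 -0.079 to 0.030, Adam11 -0.094 to 0.259, Adam1a -0.045 to 0.204, Adam2 -0.144 to 0.117, Adam4 -0.079 to 0.191, Adamts10 -0.230 to 0.185, Adamts14 -0.056 to 0.037, Adamts18 -0.116 to 0.110, Adamts5 -0.169 to 0.263, Adamts7 -0.178 to 0.204, Adamtsl5 -0.100 to 0.071, Mmp11 -0.067 to 0.076, Mmp19 -0.056 to 0.101, Mmp1b -0.392 to 0.040, Adamts13 -0.073 to 0.271, Adamts3 -0.106 to 0.133, Adamts4 -0.107 to 0.304, Adamtsl1 -0.066 to 0.256, Adamtsl2 -0.065 to 0.289, Mmp1a -0.190 to 0.046, Adam39 -0.380 to 0.076, Mmp10 -0.216 to 0.017, Mmp9 -0.0032 to 0.103, Adam15 -0.013 to 0.257, Adam29 -0.068 to 0.341, Adam34l -0.0079 to 0.243, Mmp16 -0.233 to 0.036, Mmp17 -0.134 to 0.097, Mmp27 -0.079 to 0.184, Adam32 -0.200 to 0.012, Adam8 -0.058 to 0.183 and Mmp25 -0.138 to 0.064. The causes of these changes were not tested. In simulated data 2.4% of genes changed by 0.5 passed with 3 arrays a group, and signals under the lower quartile (Timp1, Mmp3, Adam6b) limit what their differences can show.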

Other observations

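The Mmp14 signal minus the Timp3 signal, taken within each array, was 0.82, 2.29 and 1.45 in SHH mice 26, 28 and 31, against 0.09, 0.51 and 0.12 in GFP mice 13, 21 and 6. The groups did not overlap, and the mean difference was 1.28 on the log2 scale. Set against Timp2 and Timp4, Mmp14 gave differences of 0.51 and 0.54, and both overlapped between the groups. Mmp14 and Timp3 were chosen with their differences known, so this is a description with no test. A difference between probe sets carries their binding and shows unequal change between livers only.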
